A study of Mus musculus with 12 samples.

Results

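Acod1 and 8 genes that surround it in metabolism were followed across RNA-seq libraries of mouse bone marrow-derived macrophages (BMDMs). The 9 genes were chosen by their function, as enzymes and a carrier that make, feed or break down itaconate, or that itaconate acts on: Acod1, Aco1, Cs, Slc25a1, Idh2, Idh3a, Sdha, Sdhb and Clybl. All 9 were among the 48795 genes listed and among the 11228 genes with enough counts to be tested. The measurements came from 12 libraries of total RNA, 2 for each of 6 groups. WT cells, labelled as strain C57BL/6, and Acod1-/- cells, labelled as strain C57BL/6NJ-Acod1em1(IMPC)J/J, received vehicle, particulate matter (PM, an urban dust reference material) at 20 μg/cm2 for 24 hours, or, before the same PM exposure, 2 hours of 0.25 mM 4-octyl itaconate (OI), an itaconate ester that enters cells. The methods name the WT mice as C57BL/6NJ, all mice were males aged 7 to 11 weeks, and their marrow cells were grown into macrophages with M-CSF. No group received OI without PM, and the sources used here do not say whether libraries of a group came from separate animals, so p-values measure the spread between these libraries, which may be technical.

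Acod1 (also called Irg1) encodes aconitate decarboxylase, a mitochondrial enzyme of activated macrophages that diverts cis-aconitate, an intermediate of the tricarboxylic acid (TCA) cycle, into itaconate. Citrate synthase (Cs) supplies the citrate from which cis-aconitate is made, and aconitase and the isocitrate dehydrogenases compete for the same carbon. Itaconate resembles succinate and inhibits succinate dehydrogenase, the complex of the cycle that also feeds electrons into the respiratory chain.

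Library totals ran from 33616577 to 36817898 counts (median 34480636). The cells carried the RNA of macrophages in every library: 8 macrophage markers summed to between 14300 and 27300 normalized CPM (counts relative to library size, scaled by TMM), and none was under 1 CPM throughout. Markers of other cells were low, with 8 neutrophil markers summing to between 5.35 and 61 CPM and 5 of these under 1 CPM in all libraries. B cell markers summed to at most 4.04 CPM, stromal markers to at most 2.6, dendritic cell markers to at most 0.547, T cell markers to at most 0.0338 and mast cell and erythroid markers to at most 0.0308. The libraries of the WT OI+PM group stood apart, since their counts differed more than those of any other group (chi-square per degree of freedom 58.5, against 2.61 to 27.3), and the difference followed gene length (Spearman's rho −0.62 across genes; genes are not independent replicates). The WT PM libraries showed the same relation (rho −0.60). For changes with OI in WT, the value without either WT OI+PM library or with a correction for length is given where it changed the call of a member, and for some other genes.

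Acod1 (ENSMUSG00000022126.6) lies on the plus strand of chromosome 14 of GRCm38, from 103046977 to 103056573, with 5 exons and 2623 exonic bases that overlap no other annotated gene. Its promoter is shown because no other member moved as far. The RefSeq promoter table (GRCm38.p6) gave the sequence. The 215 bases shown, chr14:103046762-103046976 on the plus strand, precede the GENCODE start (103046977), while the RefSeq start is at 103047012. Capitals mark the matches to the motifs searched on both strands.

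Acod1 promoter: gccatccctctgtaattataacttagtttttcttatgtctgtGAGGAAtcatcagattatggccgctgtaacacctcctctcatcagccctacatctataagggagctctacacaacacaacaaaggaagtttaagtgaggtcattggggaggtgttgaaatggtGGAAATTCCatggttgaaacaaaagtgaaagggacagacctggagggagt

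The first capitals (GAGGAA) match the core of PU.1 and other ETS factors, with their first base 173 bases before the GENCODE start and 208 before the RefSeq start. The second (GGAAATTCC) match an NF-κB pattern (GGANNTTCC), 50 bases before the GENCODE start and 85 before the RefSeq start. The ETS core was present in 19.9% and the NF-κB pattern in 2.95% of 27025 mouse promoter windows of this length. Each window, also those of the other members, was placed relative to its RefSeq start as that of Acod1 was. The bases next to that start were therefore not searched, for the TATA box or any other motif. The letters of the NF-κB pattern were set after this window had been seen. No match was present in the window for AP-1 (TGANTCA, in 6.11% of promoters), the core of the antioxidant response element (TGACNNNGC, 8.47%), the IRF core (GAAANNGAA, 6.23%), C/EBP (TTGCNNCAA, 1.59%), the cAMP response element (TGACGTCA, 1.12%) or the TATA box (TATAAA, 10.1%). Promoter windows were found for 8 of the 9 members and none for Idh3a. Of the other 7 windows, that of Clybl held 1 match, to the IRF core, and the other 6 held 0 matches to these motifs.

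The first question was how Acod1 RNA responded to PM. Acod1 was low in vehicle-treated WT BMDMs, at 1.84 and 2.49 normalized CPM (69 and 98 counts), and stood at 181 and 170 normalized CPM (6346 and 5908 counts) after PM. Acod1-/- BMDMs held 1.26 and 1.22 normalized CPM with vehicle (46 and 44 counts) and 108 and 94.1 after PM (3660 and 3271 counts). The vehicle and PM libraries were far apart in both genotypes. The log2 fold change was 6.33 in WT (SE 0.277, adjusted p = 3.78e-07, from the quasi-likelihood test of edgeR, adjusted by Benjamini and Hochberg's method over all genes), an 80.7-fold rise (95% interval 52.6 to 124), which placed Acod1 at rank 3 of 11228 genes by log2 fold change. It was 6.34 in Acod1-/- cells (SE 0.293, adjusted p = 4.26e-07), an 81.1-fold rise (51.5 to 128), at rank 7. The difference between the genotypes in the PM effect was 0.01 on the log2 scale (95% interval −0.73 to 0.75, adjusted p = 1), so differences in fold of up to 1.68 times remain within the interval. Summed macrophage markers were also higher after PM, at 23200 and 26800 normalized CPM against 14600 and 14400 in WT. Of the 8 markers, 5 rose in WT and 4 in Acod1-/- cells, with 0 falling. Of all tested genes, 12.6% rose and 12.2% fell in WT, and 12% rose and 11.9% fell in Acod1-/- cells. Most of the sum of macrophage markers was Lyz2, at 10000 and 9940 with vehicle and 17700 and 21200 with PM in WT, while Mertk stood at 91.6 and 81.4 and then at 80.2 and 64.9 (log2 fold change −0.25, adjusted p = 0.302). The 8 neutrophil markers summed to 6.20 and 5.35 normalized CPM with vehicle and 12.2 and 18.3 with PM in WT, and to 6.26 and 5.8 and then 18.5 and 17.3 in Acod1-/- cells, and both of those tested, S100a8 and S100a9, rose in each genotype. S100a9 lay near the filter of 1.5 CPM, and its PM values alone were enough for it to be tested. The filter thus favoured its rise with PM. The part of these markers in the change of Acod1 was not tested. In bulk RNA, fewer cells of a type and less RNA per cell cannot be told apart.

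OI before PM lowered Acod1 in both genotypes. WT libraries held 32.6 and 57.1 normalized CPM after OI+PM (1087 and 1688 counts), and Acod1-/- libraries 24.4 and 26.8 (812 and 871 counts). All 4 values were below those of the PM libraries and above those of the vehicle libraries. The log2 fold change against PM was −1.97 in WT (SE 0.211, adjusted p = 4.15e-05) and −1.98 in Acod1-/- cells (SE 0.215, adjusted p = 5.04e-05), which left 25.5% and 25.4% of the level with PM. The 2 comparisons with OI use the same PM libraries as the comparisons of PM with vehicle. Their difference between genotypes was 0.00 (95% interval −0.65 to 0.64, adjusted p = 0.999). The WT value differed by library: it was −1.62 (adjusted p = 6.93e-07) without WT OI+PM replicate 1 and −2.43 (adjusted p = 4.53e-08) without replicate 2, and the fall passed the test either way. Markers of macrophages also moved with OI: 6 of the 8 fell in each genotype (1 rose in WT and 0 in Acod1-/- cells), with median log2 fold changes of −0.69 and −0.74, and their sums went from 23200 and 26800 to 14400 and 16600 normalized CPM in WT and from 27300 and 24500 to 15000 and 15400 in Acod1-/- cells. Of all tested genes, 22.6% fell and 21.3% rose in WT, and 20.6% fell and 13.9% rose in Acod1-/- cells. S100a8, a neutrophil marker, rose from 9.97 and 15.2 to 28.8 and 60.5 normalized CPM in WT and from 13.9 and 11.7 to 31.6 and 32.6 in Acod1-/- cells. S100a9, the only other neutrophil marker of 8 with enough counts to be tested, fell, from 1.26 and 2.16 to 0.419 and 0.474 in WT and from 3.23 and 3.31 to 1.02 and 1.05 in Acod1-/- cells. Its PM values in Acod1-/- cells passed the filter of 1.5 CPM and no OI+PM value did, so the filter favoured this fall. B cell markers went from 2.49 and 4.04 to 1.11 and 1.05 normalized CPM in sum in WT and from 2.88 and 2.76 to 1.17 and 0.862 in Acod1-/- cells, and the 1 of 4 that was tested, Cd79b, fell in each genotype. The part of these shifts in the change of Acod1 was not tested.

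**Figure D1:**
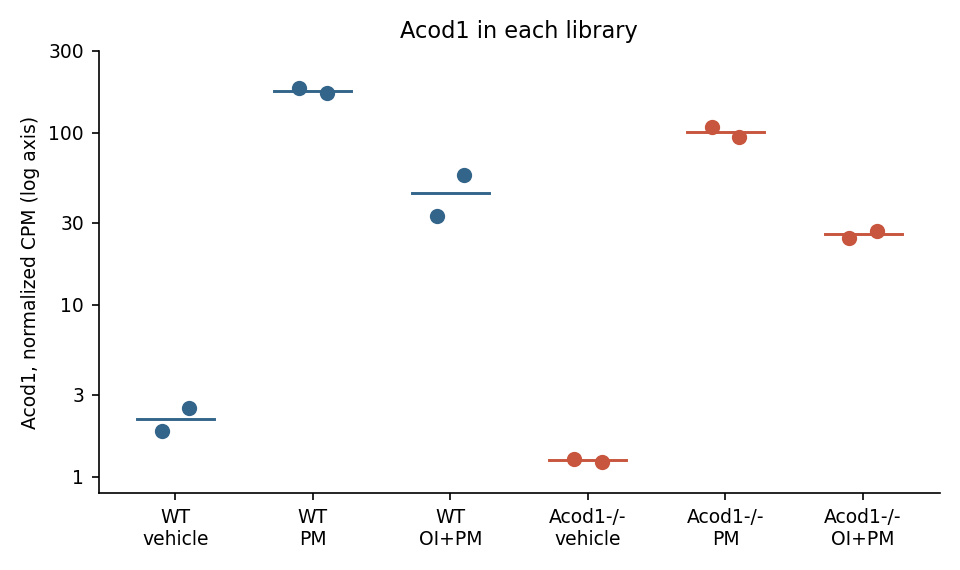
Acod1 in each of the 12 libraries, as normalized CPM on a log axis, with WT in blue and Acod1-/- in red. Points are libraries and bars are the means of 2. Vehicle libraries lie between 1.22 and 2.49, PM libraries between 94.1 and 181, and OI+PM libraries between 24.4 and 57.1.

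The Acod1-/- libraries kept reads on Acod1, at a similar share of the WT level under each treatment. The share was 57.1% with vehicle (log2 fold change −0.81, SE 0.362, adjusted p = 0.492), 57.4% with PM (−0.80, SE 0.203, adjusted p = 0.0807) and 57.2% with OI+PM (−0.81, SE 0.213, adjusted p = 0.0509). The values of the genotypes did not overlap under any treatment. None of the 3 passed the test, and the call rested on the method: DESeq2 gave adjusted p = 0.00952 with PM and 0.00615 with OI+PM. In edgeR all 3 passed with no filter on low counts (adjusted p = 0.00176 with vehicle, 1.67e-11 with PM and 4.33e-10 with OI+PM). The compared groups fitted alone gave 0.00372 with vehicle and 0.00351 with PM, and the length correction 0.0136 with PM and 0.0218 with OI+PM. Of the settings that kept every library of the compared groups, 2 of 9 called it with vehicle, 5 of 10 with PM and 5 of 9 with OI+PM. These settings include the compared groups fitted alone. The OI+PM value also rested on the library, being −1.16 (adjusted p = 0.000186) without WT OI+PM replicate 1 and −0.35 (adjusted p = 0.136) without replicate 2. The deposited values are sums over the whole gene and the labels do not give the deleted part, so the counts cannot show whether the remaining reads lack it, and they do not check the genotype. The study measured itaconate in BMDMs after PM and reported it in WT but not in Acod1-/- cells. A second gene also separated the genotypes. Nnt, a mitochondrial transhydrogenase that is defective in some C57BL/6 substrains, was at 37.4 and 37.7 normalized CPM in vehicle-treated WT and at 72.4 and 74.3 in vehicle-treated Acod1-/- libraries, which differed by 0.97 on the log2 scale (SE 0.0579, adjusted p = 3.83e-05), with 0.95 under PM and 1.27 under OI+PM. Nnt is annotated by 2 overlapping gene records, which makes its counts uncertain. Genotype and any difference in substrain cannot be told apart in these samples.

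Ordered by mean level, Acod1 was highest in WT PM libraries (176 ± 7.78 normalized CPM, SD, n = 2), followed by Acod1-/- PM (101 ± 9.57), WT OI+PM (44.8 ± 17.4), Acod1-/- OI+PM (25.6 ± 1.71), WT vehicle (2.17 ± 0.46) and Acod1-/- vehicle (1.24 ± 0.0253). The ranges of neighbouring groups did not overlap, although WT OI+PM and Acod1-/- OI+PM were as close as 32.6 and 26.8, and the differences between genotypes within a treatment did not pass the test. Between the highest and the lowest group mean lay a ratio of 142. For the other 8 members this ratio was between 1.03 (Aco1) and 1.83 (Slc25a1).

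Counts of members that passed were read against the share of all tested genes. With PM in WT, 3 of 9 members rose and 0 fell, against 12.6% and 12.2% of all tested genes. In Acod1-/- cells, 2 of 9 rose and 0 fell, against 12% and 11.9% of all tested genes. Leaving Acod1 aside, these were 2 of 8 members in WT and 1 of 8 in Acod1-/- cells. OI before PM raised 1 member and lowered 3 in WT, where 21.3% of genes rose and 22.6% fell, and it raised 0 and lowered 3 in Acod1-/- cells, where 13.9% rose and 20.6% fell. The WT split rested on the WT OI+PM libraries, and the calls over all genes moved with these libraries too. Log2 fold changes of Idh3a, Sdha, Sdhb and Clybl were −0.17, −0.14, 0.40 and 0.11 without replicate 1. Without replicate 2 they were −0.41, −0.26, −0.10 and −0.35, while Aco1 and Cs moved slightly the other way. The median log2 fold change over the 9 members was 0.08 and 0.10 for PM in WT and Acod1-/- cells and −0.11 and −0.14 for OI, beside 0.01, 0.00, 0.02 and 0.00 over all tested genes. The lowering by OI covered Acod1 and Sdha in both genotypes, with Idh3a in WT and Idh2 in Acod1-/- cells.

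Cs, which encodes the enzyme that joins acetyl-CoA and oxaloacetate to citrate (ENSMUSG00000005683.7, chr10:128337734-128362479, plus strand), was at 36.1 and 35.8 normalized CPM per kilobase of exon in vehicle-treated WT libraries and at 42.1 and 40.9 after PM. The PM libraries were above the vehicle libraries, and Cs rose by 0.21 on the log2 scale (SE 0.0499, adjusted p = 0.0142). This call was lost without WT vehicle replicate 1 (adjusted p = 0.0897) or replicate 2 (0.0987), with scaling by total counts (0.157), with no filter on low counts (0.132) and with the compared groups fitted alone (0.0699). The Acod1-/- libraries held Cs at 35.6 and 35.7 per kilobase with vehicle and at 39 and 39.2 after PM, which gave 0.13 on the log2 scale (SE 0.0499, adjusted p = 0.0786). With the correction for length Cs rose with PM in both, by 0.27 in WT (adjusted p = 0.000667) and 0.19 in Acod1-/- cells (adjusted p = 0.00556), and it was lower in Acod1-/- than in WT cells with OI+PM (−0.16, adjusted p = 0.0349). After OI+PM, Cs was at 41.3 and 40.5 per kilobase in WT and 38 and 37.4 in Acod1-/- cells, with log2 fold changes of −0.02 (95% interval −0.13 to 0.09) and −0.05 (−0.16 to 0.06).

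Slc25a1, the mitochondrial carrier that exports citrate to the cytosol (ENSMUSG00000003528.14, chr16:17925223-17928219, minus strand), had the largest ratio between group means after Acod1 (1.83). In WT it was at 61.4 and 62.8 normalized CPM with vehicle, 75.8 and 82.4 with PM, and 96.5 and 110 with OI+PM. The Acod1-/- libraries stood at 55.7 and 56.9 with vehicle, 73.6 and 71.6 with PM, and 78.3 and 75.3 with OI+PM. The 3 treatments did not overlap in either genotype. PM raised Slc25a1 by 0.35 in WT (SE 0.0763, adjusted p = 0.00935) and by 0.37 in Acod1-/- cells (SE 0.0765, adjusted p = 0.00651). OI raised it further by 0.38 in WT (SE 0.076, adjusted p = 0.00257; lost with the compared groups fitted alone, adjusted p = 0.12), and the log2 fold change in Acod1-/- cells was 0.08 (95% interval −0.09 to 0.25, adjusted p = 0.465). The difference in the OI effect between genotypes was −0.30 (SE 0.108), and it did not pass after adjustment over all genes in edgeR (adjusted p = 0.733). Without WT OI+PM replicate 1 that difference was −0.39, and without replicate 2 it was −0.21, each from a fit with 1 library left in that group.

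The level of Slc25a1 with OI+PM was lower in Acod1-/- than in WT cells, with −0.43 on the log2 scale (SE 0.0761, adjusted p = 0.0134). It was the only one of 9 members to differ between the genotypes in the main test under any treatment, and it was lost without Acod1-/- OI+PM replicate 1 (adjusted p = 0.0909) or replicate 2 (0.118) and with the compared groups fitted alone (0.33). With the correction for gene length the difference was −0.28 (adjusted p = 0.00906), the rise with OI in WT was 0.27 (adjusted p = 0.00172) and the rise with PM in WT was 0.17 (adjusted p = 0.0402), about 0.5 times the uncorrected value. Leaving out a library ended the PM call in WT for WT vehicle replicate 1 (adjusted p = 0.0816), WT vehicle replicate 2 (0.0552) or WT PM replicate 2 (0.0736), and in Acod1-/- cells for Acod1-/- vehicle replicate 1 (0.0617) or Acod1-/- PM replicate 1 (0.0539).

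Aco1 encodes the cytosolic aconitase, which doubles as iron regulatory protein 1 (ENSMUSG00000028405.9, chr4:40143081-40198338, plus strand). It was the most constant member, between 84.7 and 91.8 normalized CPM over the 12 libraries with a median of 87.8. Its log2 fold changes lay between −0.03 and 0.03 in the 7 comparisons of groups. The 95% interval for PM in WT was −0.13 to 0.15, and that for OI in WT was −0.15 to 0.14.

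Both isocitrate dehydrogenase genes followed here act in mitochondria, and each fell with OI in 1 genotype. Idh2, the NADP-dependent enzyme (ENSMUSG00000030541.16, chr7:80094846-80115392, minus strand), was at 69.1 and 80.1 normalized CPM in WT PM libraries and at 61.1 and 73.8 with OI+PM, which overlap (log2 fold change −0.15, adjusted p = 0.245). The Acod1-/- values were 70.9 and 74.2 with PM and 60.2 and 59.3 with OI+PM, which do not overlap, and it fell by 0.28 on the log2 scale (SE 0.0971, adjusted p = 0.0485). This call was at the threshold: it was lost when any of the 4 libraries was left out, with adjusted p from 0.105 (without Acod1-/- PM replicate 1) through 0.15 and 0.187 (without OI+PM replicate 1 or 2) to 0.204 (without PM replicate 2), and when every gene with 10 or more counts over the libraries was kept (0.0741). Without WT OI+PM replicate 1 or 2 the WT value was −0.02 (adjusted p = 0.882) or −0.29 (adjusted p = 0.0221). With the correction for length Idh2 fell in both genotypes, by 0.24 in WT (adjusted p = 0.00461) and by 0.30 in Acod1-/- cells (adjusted p = 0.00133).

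Idh3a, the catalytic subunit of the NAD-dependent enzyme of the cycle (ENSMUSG00000032279.10, chr9:54586334-54604661, plus strand), was at 43.6 and 47.2 normalized CPM in WT PM libraries and at 34.1 and 40.3 with OI+PM. It fell by 0.29 (SE 0.0904, adjusted p = 0.0264). The fall no longer passed without WT PM replicate 2 (−0.23, adjusted p = 0.116), without WT OI+PM replicate 1 (−0.17, adjusted p = 0.101) or with the compared groups fitted alone (adjusted p = 0.202). Idh3a in Acod1-/- cells was at 42.6 and 42.2 with PM and at 36.8 and 40.3 with OI+PM, which gave −0.14 on the log2 scale (SE 0.0903, adjusted p = 0.278). The effects of OI on Idh2 and Idh3a did not pass the test of a difference between genotypes (differences −0.13, 95% interval −0.44 to 0.17, and 0.15, −0.13 to 0.44). With PM alone neither gene passed, although Idh2 in Acod1-/- cells (−0.12) passed with the correction for length (−0.22, adjusted p = 0.0114), and Idh3a had log2 fold changes of −0.08 in WT and −0.19 in Acod1-/- cells (adjusted p = 0.523 and 0.146).

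Of the 2 subunits of succinate dehydrogenase followed here, Sdha fell with OI in both genotypes, and Sdhb did not pass in any comparison by edgeR with all 12 libraries, with or without the correction for length. Sdha, the flavoprotein that binds succinate (ENSMUSG00000021577.13, chr13:74322254-74350280, minus strand), was at 281 and 289 normalized CPM in WT PM libraries and at 237 and 259 with OI+PM. In Acod1-/- cells it was at 304 and 282 with PM and at 244 and 243 with OI+PM. In both genotypes the OI+PM libraries lay below the PM libraries, and also below the vehicle libraries (271 and 267 in WT, 269 and 277 in Acod1-/- cells). Sdha fell by 0.20 in WT (SE 0.0618, adjusted p = 0.0249) and by 0.27 in Acod1-/- cells (SE 0.0618, adjusted p = 0.00733). The WT call was lost without WT PM replicate 2 (adjusted p = 0.0854) or WT OI+PM replicate 1 (0.0793), without a filter on low counts (0.0814) and with the compared groups fitted alone (0.229). The Acod1-/- call was lost without Acod1-/- PM replicate 1 (0.0681) or OI+PM replicate 2 (0.0527).

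Sdhb, the iron-sulfur subunit that passes electrons on (ENSMUSG00000009863.14, chr4:140961203-140979193, plus strand), varied more between libraries. In WT it was at 107 and 108 normalized CPM with vehicle, 126 and 152 with PM, and 130 and 183 with OI+PM, so the replicates of the last 2 groups lay far apart. Acod1-/- cells showed 122 and 114, 151 and 140, and 138 and 149. The log2 fold change with PM was 0.37 in WT (SE 0.146, adjusted p = 0.0889) and 0.30 in Acod1-/- cells (SE 0.145, adjusted p = 0.161), and corrected for length these were 0.19 and 0.17. With OI it was 0.17 in WT (SE 0.145, adjusted p = 0.363) and −0.02 in Acod1-/- cells (adjusted p = 0.927). The WT value rested on 1 library: it was 0.40 (adjusted p = 0.00646) without WT OI+PM replicate 1 and −0.10 (adjusted p = 0.483) without replicate 2. Per kilobase of exon, the ratio of the level of Sdha to that of Sdhb was 1.38 and 1.34 in vehicle-treated WT libraries, 1.22 and 1.03 with PM and 0.994 and 0.765 with OI+PM, and 1.20 and 1.31, 1.09 in both, and 0.959 and 0.886 in Acod1-/- libraries. It was lower in each PM library of WT than in each WT vehicle library, with the same order in Acod1-/- cells, and lower again in each OI+PM library. Corrected for length, the log2 fold changes of Sdha and Sdhb with PM lay closer together, at 0.05 and 0.19 in WT (0.08 and 0.37 without the correction) and at 0.08 and 0.17 in Acod1-/- cells (0.10 and 0.30).

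Clybl encodes citramalyl-CoA lyase, which breaks down the citramalyl-CoA formed from itaconate (ENSMUSG00000025545.9, chr14:122181704-122402234, plus strand). It lay between 10.3 and 14.3 normalized CPM over the 12 libraries, and it did not pass in any comparison by edgeR with all 12 libraries and no correction for length. The largest difference was with OI in Acod1-/- cells, where the libraries went from 13.6 and 11.8 to 10.3 in both (log2 fold change −0.31, SE 0.142, adjusted p = 0.129). With the correction for length this became −0.32 (adjusted p = 0.00467), and the WT value −0.27 (adjusted p = 0.0102) in place of −0.11. The WT value for OI was 0.11 (adjusted p = 0.433) without WT OI+PM replicate 1 and −0.35 (adjusted p = 0.0344) without replicate 2. With PM in WT the corrected value of Clybl was −0.29 (adjusted p = 0.0113) in place of −0.04.

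**Figure D2:**
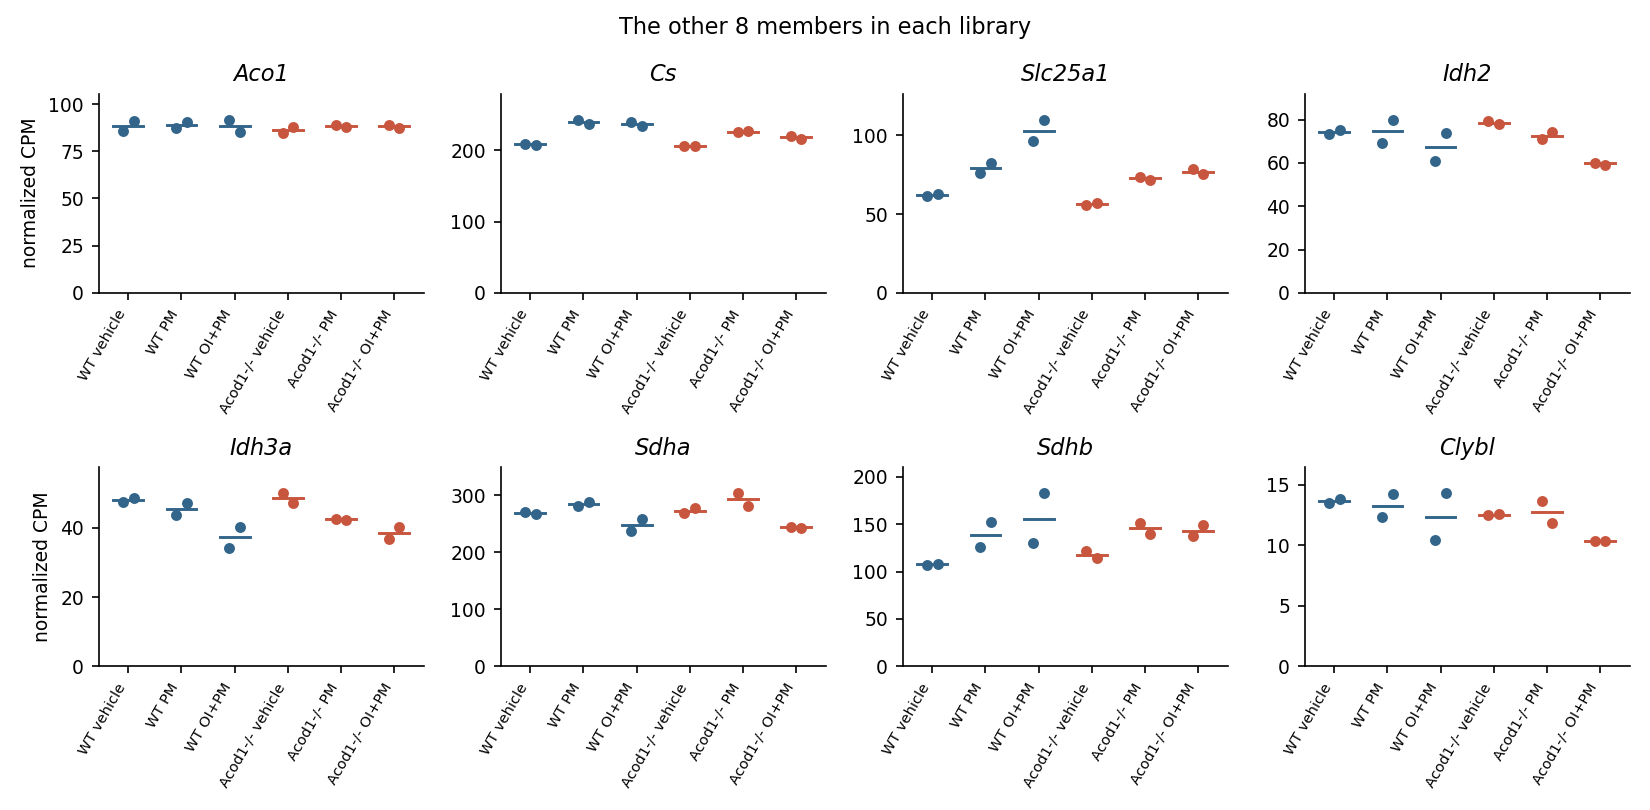
The 8 members other than Acod1 in each library, as normalized CPM on axes from 0. Points are libraries, bars are means of 2, WT is blue and Acod1-/- is red. Slc25a1 climbs from 62.1 through 79.1 to 103 in WT, Aco1 stays near 88, and Sdhb spreads from 130 to 183 in the WT OI+PM libraries.

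Few members passed the test between genotypes. Of 8 macrophage markers, 1 was higher in Acod1-/- cells under each treatment, and 0, 0 and 1 were lower with vehicle, PM and OI+PM. Of 2 neutrophil markers tested, 1 was higher in Acod1-/- cells with PM and 0 differed with vehicle or OI+PM. The 1 was S100a9, whose values in Acod1-/- PM libraries alone were enough for it to be tested, which favoured this difference. The part of these markers in the differences was not tested. With vehicle, 0 of 9 members passed the test of edgeR, against 0.891% of all genes higher and 0.935% lower in Acod1-/- cells. At an unadjusted p under 0.05 there was 1 member, Acod1 itself, beside 10.2% of all genes, and DESeq2 called 0. With PM, 0 of 9 passed in edgeR, against 1.1% higher and 1.3% lower. There too Acod1 was the 1 member at an unadjusted p under 0.05 (14% of all genes), and DESeq2 called it. With OI+PM, 1 of 9 passed (Slc25a1, lower), against 2.51% higher and 4.45% lower, and 3 members (Acod1, Cs and Slc25a1) had an unadjusted p under 0.05, beside 29.2% of all genes. This last count rested on WT OI+PM replicate 1: without it 5 members were lower in Acod1-/- cells, namely Acod1, Slc25a1 (−0.52), Idh2 (−0.30), Sdhb (−0.36) and Clybl (−0.47), but 28.3% of all genes were then called lower and 20.3% higher. Without replicate 2 of that group only Slc25a1 passed (−0.33, adjusted p = 0.0321), against 2.23% of all genes lower and 1.37% higher.

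No member passed the test of a difference between genotypes in the PM effect or the OI effect in edgeR (0 of 9 for both, beside 0% of all genes higher and 0% lower). For the OI effect this rested on WT OI+PM replicate 1. Without it, which leaves 1 library in that group, genes did pass in both directions, Slc25a1 among those lower. At an unadjusted p under 0.05 there were 0 members for PM and 1, Slc25a1, for OI, beside 2.43% and 6.39% of all genes. DESeq2 called 0 members for both, and 3 and 34 genes overall.

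**Figure D3:**
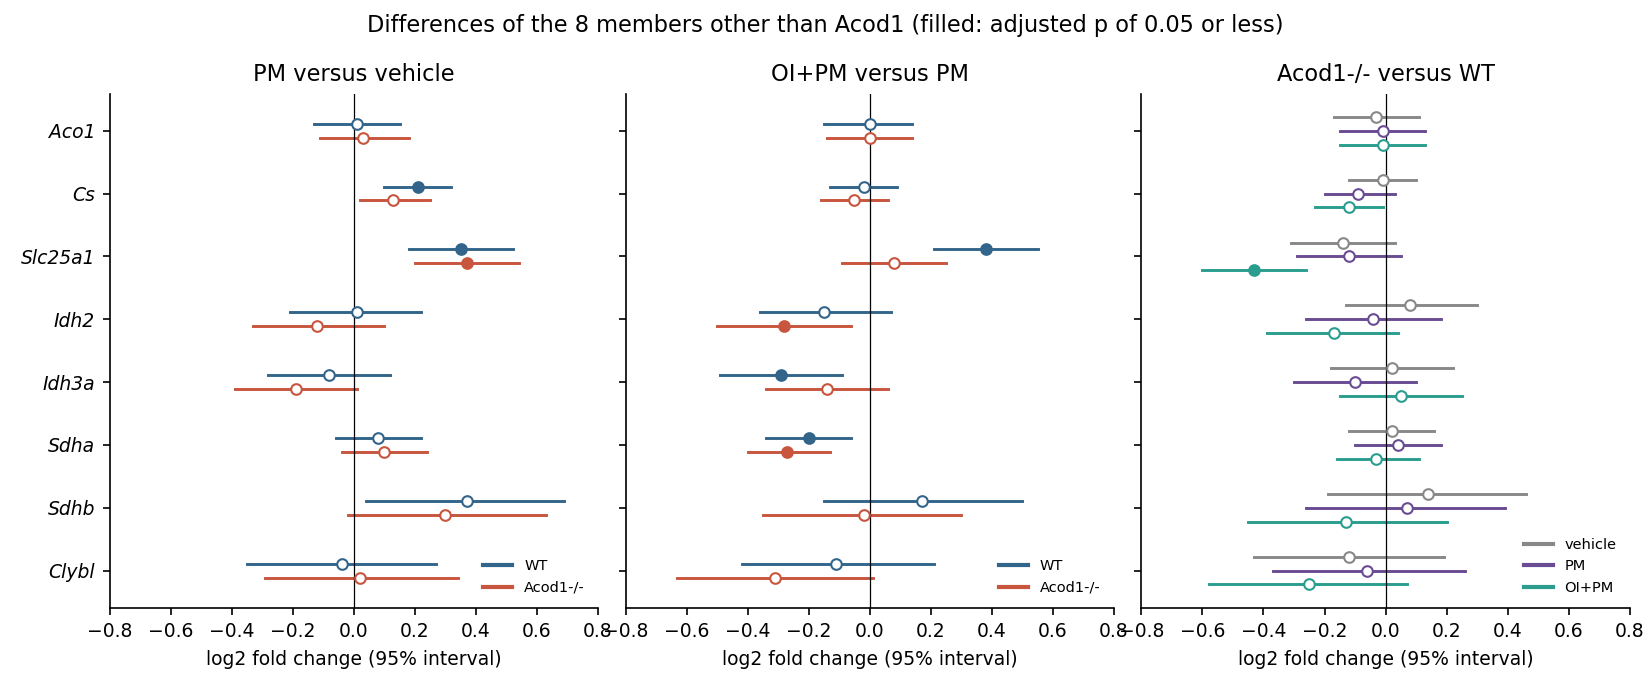
Log2 fold changes of the 8 members other than Acod1 with 95% intervals, for PM versus vehicle, OI+PM versus PM and Acod1-/- versus WT, coloured by genotype or treatment. Filled points passed at an adjusted p of 0.05 or less. Slc25a1 is filled in all 3 panels and Sdha in both genotypes for OI, while Aco1 lies between −0.03 and 0.03 throughout.

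Scaled per kilobase of exon, which allows levels to be set between genes, Acod1 went from the lowest rank to the upper part of the order in WT and to near the middle in Acod1-/- cells. Among the 9 members and 15 other genes of the cycle, Acod1 ranked 24 of 24 in all 4 vehicle libraries. In the WT PM libraries it ranked 4 and 7, and its level was 1.01 and 0.928 times that of Sdha. In the Acod1-/- PM libraries it ranked 9 and 11, at 0.557 and 0.525 times Sdha. With OI+PM it ranked 20 and 17 in WT and 21 in both Acod1-/- libraries, at 0.216 and 0.347 times Sdha in WT and 0.157 and 0.174 in Acod1-/- cells.

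**Figure D4:**
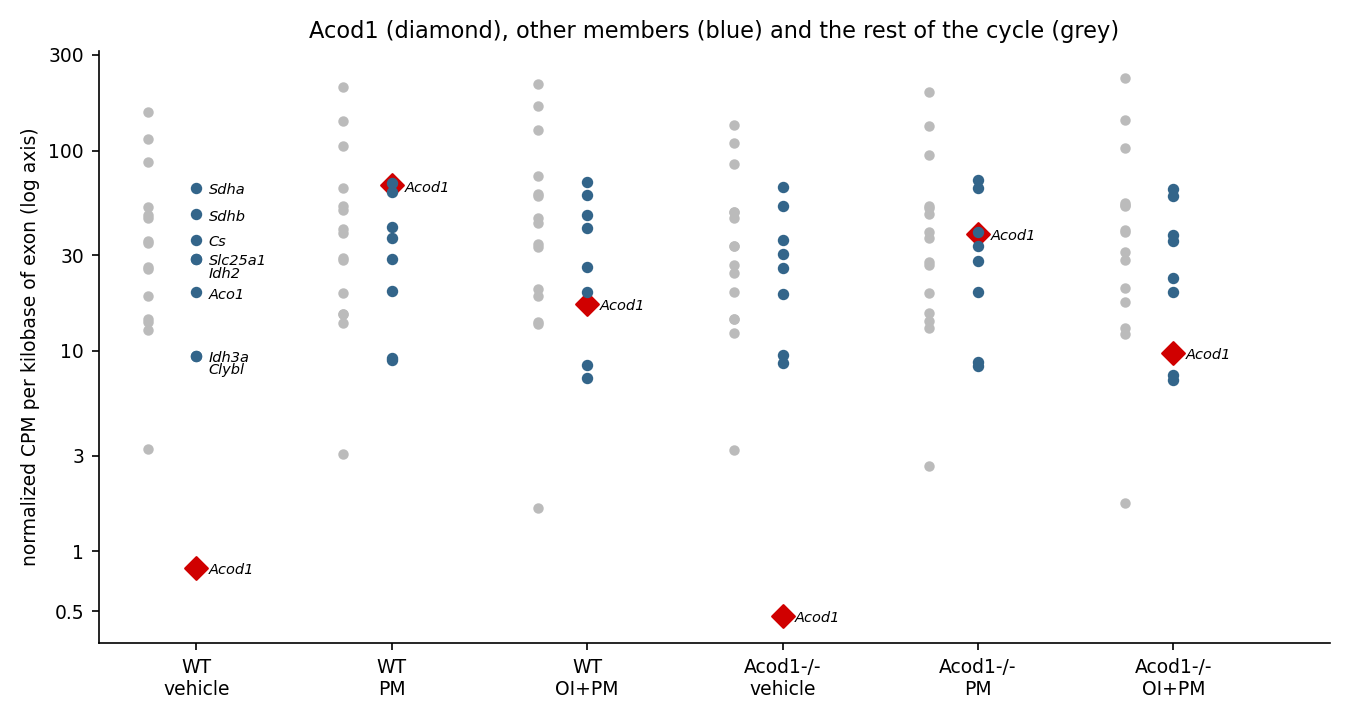
Mean normalized CPM per kilobase of exon on a log axis in each group, with Acod1 as a red diamond, the other 8 members in blue and 15 further genes of the cycle in grey. Acod1 is the lowest point in both vehicle groups, at 0.827 and 0.473, and reaches 67 in WT PM libraries, beside Sdha at 69.1.

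The rest of the TCA cycle was followed through a list of genes. Of 15 further genes of the cycle, all tested, PM raised 1 and lowered 0 in WT and raised 1 and lowered 1 (Suclg2, by 0.26) in Acod1-/- cells, with median log2 fold changes of 0.14 and 0.09, beside 12.6% of all genes higher and 12.2% lower in WT and 12% and 11.9% in Acod1-/- cells. The gene that rose in both was Idh1, the cytosolic NADP-dependent isocitrate dehydrogenase, by 0.42 (SE 0.06, adjusted p = 0.00082) in WT and 0.55 (SE 0.0601, adjusted p = 0.000112) in Acod1-/- cells. With OI, 2 rose and 1 fell in each genotype, with medians of 0.19 and 0.08, beside 21.3% higher and 22.6% lower over all genes in WT and 13.9% and 20.6% in Acod1-/- cells. Ogdh rose in both (0.22 in each), and Idh1 rose in Acod1-/- cells (0.23). With scaling by total counts, edgeR gave Ogdh 0.09 in WT (adjusted p = 0.455) and 0.15 in Acod1-/- cells (0.25), and Idh1 0.16 (0.113). The Ogdh calls were also lost with either other filter on low counts, and that of Idh1 with the correction for length (0.0754). The gene that fell was Suclg2, the GTP-forming subunit of succinyl-CoA synthetase, by 0.88 in WT (SE 0.0857, adjusted p = 2.05e-05) and 0.63 in Acod1-/- cells (SE 0.0856, adjusted p = 0.000255). Ogdh, Idh1 and Suclg2 were named after their values were seen. Calls lost when a library was left out were the fall of Suclg2 with PM (any of the 4 libraries, adjusted p from 0.115 to 0.241), the rise of Idh1 with OI (adjusted p = 0.0936 without Acod1-/- PM replicate 2, 0.0768 and 0.0614 without OI+PM replicate 1 or 2) and that of Ogdh in Acod1-/- cells (any of the 4 libraries, from 0.0724 to 0.25) and in WT (adjusted p = 0.0554 and 0.158 without PM replicate 1 or 2, 0.15 without OI+PM replicate 1). None of the 15 differed between the genotypes in edgeR under any treatment. Few of all tested genes did: 0.891% were higher in Acod1-/- cells and 0.935% lower with vehicle, 1.1% and 1.3% with PM, and 2.51% and 4.45% with OI+PM. Of 4 assembly factors of succinate dehydrogenase, PM changed 0 and OI raised 1, Sdhaf3, in each genotype (0.50 and 0.53). The Sdhaf3 calls were lost when a library was left out (adjusted p = 0.112 without WT PM replicate 1, 0.151 without WT OI+PM replicate 2, and 0.055, 0.138, 0.107 and 0.0724 without PM or OI+PM replicate 1 or 2 in Acod1-/- cells).

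Genes that carry carbon into and out of the cycle included Me1, Pcx and Pck2, whose changes passed 2-fold. Of 22 such genes, 21 were tested. PM raised 3 (Me1, Pcx and Mpc1) and lowered 2 (Pdk1 and Pdha1) in WT, and raised 2 (Me1 and Pcx) and lowered 3 (Pdk1, Pck2 and Got1) in Acod1-/- cells, where 12.6% and 12.2% of all genes in WT and 12% and 11.9% in Acod1-/- cells rose and fell. OI raised 7 and lowered 5 in each, and the 5 were Pdha1, Pdk1, Pdk3, Me2 and Glud1 in both, against 21.3% of all genes higher and 22.6% lower in WT and 13.9% and 20.6% in Acod1-/- cells. Several of these calls were near the threshold. Any of the 4 libraries, when left out, ended the PM calls of Mpc1 in WT (adjusted p from 0.0507 to 0.151) and of Pck2 (0.113 to 0.177) and Got1 (0.0735 to 0.13) in Acod1-/- cells, and the OI call of Glud1 in Acod1-/- cells (0.072 to 0.135). The PM call of Pdha1 in WT was lost without WT vehicle replicate 1 (0.146) or 2 (0.132) or WT PM replicate 2 (0.194). Its OI calls were lost without WT PM replicate 1 (0.163) or WT OI+PM replicate 2 (0.0547), and without Acod1-/- PM replicate 2 (0.225) or OI+PM replicate 1 (0.153) or 2 (0.101). The OI call of Pdk3 in WT was lost without WT PM replicate 2 (0.0875) or WT OI+PM replicate 1 (0.0703). The genes without values here were named after their values were seen. Me1, the cytosolic malic enzyme that makes NADPH from malate, was at 4.41 and 3.26 normalized CPM with vehicle, 12.4 and 11.6 with PM and 23 and 26.8 with OI+PM in WT. In Acod1-/- cells it followed the same steps, at 3.96 and 4.64, 12.6 and 12.7, and 23.6 and 25.7. It rose with PM by 1.65 in WT (SE 0.146, adjusted p = 3.62e-05) and 1.56 in Acod1-/- cells (SE 0.145, adjusted p = 3.89e-05), and again with OI by 1.05 and 0.96 (adjusted p = 0.000112 and 0.000227), the WT value being 1.16 without WT OI+PM replicate 1 and 0.94 without replicate 2. Exons of Me1 overlap those of an antisense gene, which makes its counts uncertain where strand was not used.

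Pcx, the pyruvate carboxylase that refills oxaloacetate, took the same course. It was at 3.23 and 2.75 normalized CPM with vehicle, 8.46 and 8.96 with PM and 15 and 16.8 with OI+PM in WT, and at 1.89 and 2.53, 6.53 and 7.88, and 11.9 and 11.5 in Acod1-/- cells. The rises were 1.54 and 1.71 with PM (adjusted p = 6.08e-05 and 3.98e-05) and 0.87 and 0.69 with OI (adjusted p = 0.000452 and 0.00262), the WT value for OI being 0.95 and 0.78 without WT OI+PM replicate 1 or 2. Unlike Acod1, Me1 and Pcx were higher with OI+PM than with PM.

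Pck2, which withdraws oxaloacetate as phosphoenolpyruvate in mitochondria, rose with OI by 1.29 in WT (SE 0.125, adjusted p = 2.04e-05) and by 0.58 in Acod1-/- cells (SE 0.125, adjusted p = 0.00504). The WT rise was 1.49 without WT OI+PM replicate 1 and 1.06 without replicate 2. Its WT libraries went from 34.3 and 39 normalized CPM to 76.5 and 103, and its Acod1-/- libraries from 32.4 and 32.3 to 47 and 49.5. With OI+PM it was lower in Acod1-/- than in WT cells (log2 fold change −0.90, adjusted p = 0.00426), a call lost without Acod1-/- OI+PM replicate 1 (adjusted p = 0.0612) and with the compared groups fitted alone (0.224). The difference in the OI effect between genotypes did not pass (−0.71, SE 0.176, adjusted p = 0.422). Its exons, too, overlap an antisense gene. Pdk1, a kinase that switches off pyruvate dehydrogenase, fell with PM by 0.53 in WT and 0.45 in Acod1-/- cells, and with OI by a further 0.55 and 0.51 (adjusted p from 0.000125 to 0.00108). In WT it went from 188 and 187 normalized CPM with vehicle to 134 and 126 with PM and 93.2 and 84.1 with OI+PM.

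The genes for transport and breakdown of itaconate, with the vitamin B12 pathway that its CoA ester poisons, were followed in the same way. Of 14 genes found, 11 were tested, and Oxgr1 and Slc13a5 had 0 counts in all libraries. PM raised 2 (Slc25a11 and Rab32) and lowered 1 (Abcg2) in WT, and raised 3 (Slc25a11, Rab32 and Mcee) and lowered 2 (Abcg2 and Mmachc) in Acod1-/- cells. OI raised 2 and lowered 6 in WT, and raised 1 (Mmadhc) and lowered 5 in Acod1-/- cells, beside 21.3% of all genes higher and 22.6% lower in WT and 13.9% and 20.6% in Acod1-/- cells. The 5, which fell in WT too, were Slc13a3, Abcg2, Mmachc, Slc25a10 (a mitochondrial dicarboxylate carrier) and Rab32. Over all genes PM raised 12.6% and lowered 12.2% in WT and raised 12% and lowered 11.9% in Acod1-/- cells. The PM calls of Slc25a11 (adjusted p from 0.0612 to 0.221), Mcee (0.076 to 0.173) and Mmachc (0.0896 to 0.208) and the OI call of Mmadhc (0.0667 to 0.21) in Acod1-/- cells were lost when any of the 4 libraries was left out, and that of Mmachc also in DESeq2 (0.0532). In WT the PM call of Slc25a11 was lost without WT vehicle replicate 1 (0.206) or 2 (0.142) or WT PM replicate 2 (0.276), and that of Rab32 without WT vehicle replicate 1 (0.0795) or WT PM replicate 2 (0.0531). Abcg2, an efflux pump of the plasma membrane, was at 22.6 and 23.7 normalized CPM with vehicle, 18.5 and 16.9 with PM and 8.5 and 8.02 with OI+PM in WT, and at 30.6 and 30.4, 19.8 and 20.3, and 12.2 and 13 in Acod1-/- cells. It fell with OI by 1.10 in WT (SE 0.0829, adjusted p = 3e-06) and 0.67 in Acod1-/- cells (SE 0.0795, adjusted p = 9.58e-05), and with PM by 0.39 and 0.60 (adjusted p = 0.00582 and 0.000313). Without WT OI+PM replicate 1 or 2 the WT value for OI was −1.14 or −1.06. The fall with PM in WT was lost without WT vehicle replicate 2 (adjusted p = 0.0585) or WT PM replicate 2 (0.0525).

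Abcg2 was also higher in Acod1-/- than in WT cells with vehicle (log2 fold change 0.40, adjusted p = 0.0295) and with OI+PM (0.61, adjusted p = 0.00427). The first call was lost when any of its 4 libraries was left out, with adjusted p = 0.295 and 0.173 without WT vehicle replicate 1 or 2 and 0.26 and 0.25 without Acod1-/- vehicle replicate 1 or 2. The second was lost without Acod1-/- OI+PM replicate 2 (0.055) and with the compared groups fitted alone (0.272). Mmachc, which readies vitamin B12 for use inside the cell, fell with OI from 7.86 and 8.53 to 3.56 and 3.92 normalized CPM in WT (−1.13, SE 0.123, adjusted p = 4.62e-05; −1.06 and −1.20 without WT OI+PM replicate 1 or 2) and from 7.53 and 6.82 to 4.15 and 3.76 in Acod1-/- cells (−0.86, SE 0.123, adjusted p = 0.00035).

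Slc13a3, a dicarboxylate carrier of the plasma membrane, had few counts. WT libraries held 26 and 31 counts with PM and 3 and 2 with OI+PM, and Acod1-/- libraries 43 and 38 against 0 and 2. The ratio of the OI+PM to the PM level was 0.0973 in WT (95% interval 0.0304 to 0.241, exact, for counting error only) and 0.0258 in Acod1-/- cells (0.00307 to 0.0961). It was tested only because both Acod1-/- vehicle libraries (56 and 52 counts) reached 1.5 CPM, which no other library did. The fall passed the test of edgeR in WT (adjusted p = 0.000189) and in Acod1-/- cells (adjusted p = 1.83e-05). The fitted log2 fold change in Acod1-/- cells, −5.12, was −4.18 without Acod1-/- OI+PM replicate 1 and −8.37 without replicate 2, so its size is uncertain.

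**Figure D5:**
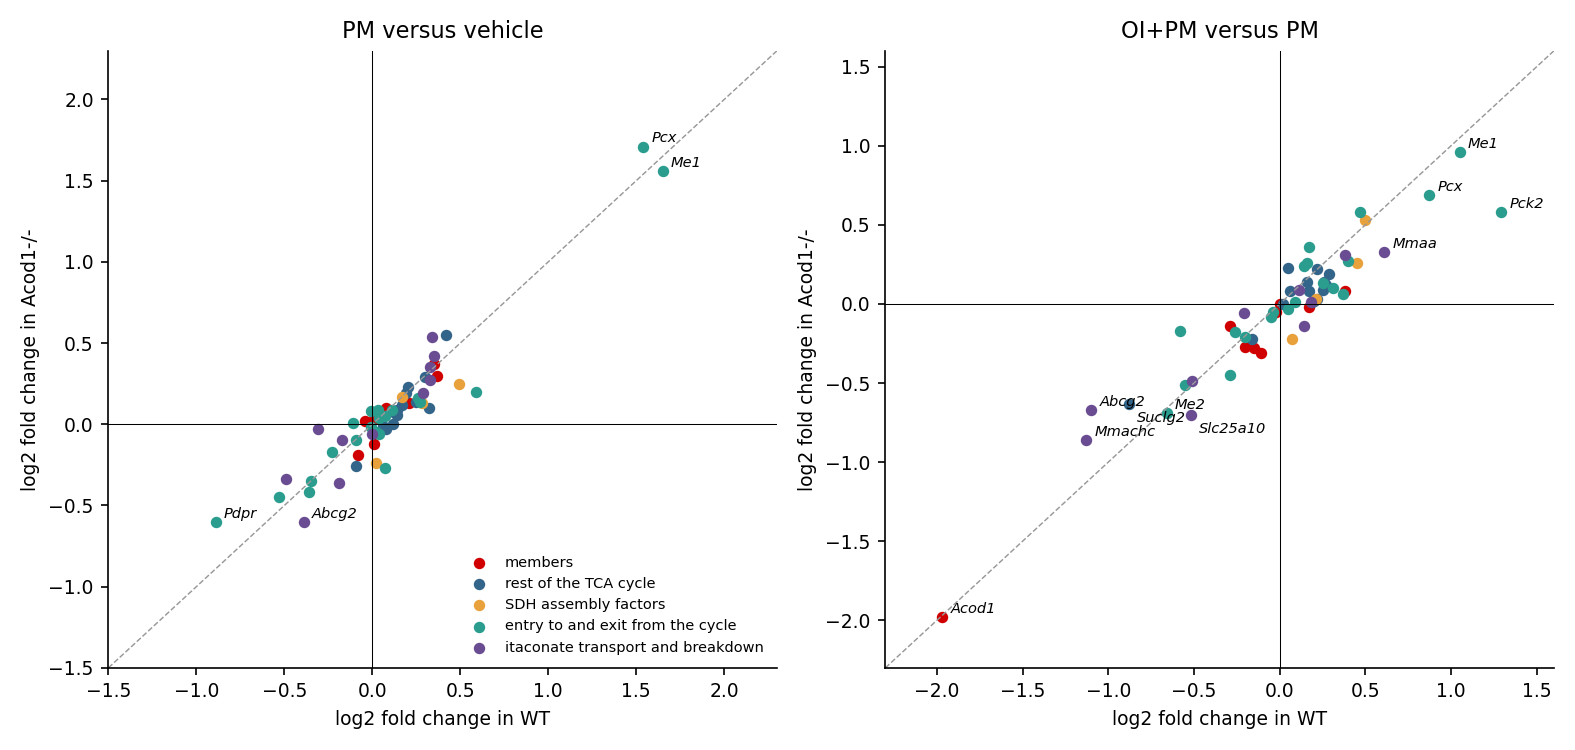
Log2 fold changes in WT (x axis) and Acod1-/- cells (y axis) for the members and the genes of 4 pathway lists, for PM versus vehicle and for OI+PM versus PM, with a dashed line where both are equal. Acod1 (6.33 and 6.34 with PM) and Slc13a3 (−3.31 and −5.12 with OI, fitted from few counts) lie outside the axes. Pcx and Me1 are the highest points for PM, for OI Pck2 is farthest to the right at 1.29 in WT and 0.58 in Acod1-/- cells, and Acod1 is the lowest point within the axes for OI.

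The genes whose log2 levels were most like those of Acod1 over the 12 libraries, among 9572 genes with a mean of at least 5 CPM, were Gsap (Pearson's r 0.983), Itgam (0.983), Mlkl (0.982), Nfkbia (0.981) and Sgk1 (0.975). Gsap encodes an activator of γ-secretase, Itgam the CD11b integrin of myeloid cells, Mlkl the effector of necroptosis, Nfkbia an inhibitor of NF-κB, and Sgk1 a stress-induced kinase. These are descriptions over 12 points that share 6 conditions, and exons of Itgam overlap another gene. The same 5 genes led with a smaller prior count on the log scale. Their steps were smaller than those of Acod1: Nfkbia went from 41.2 normalized CPM with vehicle to 160 with PM and 94.5 with OI+PM in WT, and Mlkl from 20.8 to 42.6 and 37.7. Of the other members, Cs was the most alike (r 0.899, rank 136) and Idh3a the least (−0.474, rank 7106), and Sdhb (0.715) and Slc25a1 (0.709) stood between them.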

How the data were processed

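Total RNA of 12 BMDM libraries was read from 1 end, 50 bp per read. According to the methods and the submitters' processing notes, the authors checked reads with FastQC 0.11.5 and Picard 2.9.0, mapped them to GRCm38 with STAR 2.5.3a and counted them per gene (featureCounts). What they deposited, per the labels, are raw read counts of each gene, neither normalized nor filtered. The annotation release and the handling of strand and of reads with several matches are not given in the sources used here. Such choices can shift reads between genes that overlap or resemble each other.

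Identifiers were matched to symbols, positions and exonic lengths through GENCODE M21 for GRCm38 (48435 of 48795 matched). Genes above 1.5 CPM in at least 2 of the 12 libraries were tested (11228). Counts were scaled by TMM and fitted in edgeR 4.0.16 (R 4.3.3) by quasi-likelihood, each of the 6 groups having its own mean. P-values were adjusted over all genes tested by the Benjamini-Hochberg method, and a gene passed at an adjusted p of 0.05 or less. SE was derived from the log2 fold change and its F statistic. With 2 libraries per group the SD is imprecise. The script was tested on simulated counts. Group and replicate were read from the deposited labels.

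Named genes were the 9 members, list genes that passed with a change of at least 2-fold, the largest increase and decrease among list genes that passed in each comparison, the 5 genes most like Acod1, and Nnt with cell type markers as checks. Other genes behind small counts were named after their values were seen. The members and lists were chosen with earlier results of these data known. Alternatives were DESeq2 1.42.0, RLE and total count scaling, other filters (at least 10 counts in total, or none), a replicate block, a correction for exonic length (lowess offset, span 0.3), the compared groups fitted alone and leaving out each library. A crossed pairing was added after seeing the data. Some results for individual genes are not reported here.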

Additional observations from a re-analysis of the deposited data

How the results depend on the processing

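Every called change of a member kept its direction under every alternative run. Of 117 values under other settings for the 13 called changes of members, 107 stayed past the threshold and 10 did not, and with 1 library left out 33 of 52 did. For 71 called changes of the other named genes, 61 of 640 values under other settings and 94 of 284 with a library left out were lost. Scaling by total counts moved the median of all genes by up to −0.13 (OI in WT), and put Acod1 in vehicle-treated Acod1-/- libraries at 1.32 CPM. Counts of members past the test moved by over 1.5 times as follows, and the cause was not tested. The share of all genes called is not given beside them, and it also moved when a WT OI+PM library was left out. These counts therefore do not show a trait of the members. With the compared groups fitted alone, PM in Acod1-/- gave 5 (main 2), OI in WT 1 (4), and Acod1-/- versus WT 3 with vehicle (0), 1 with PM (0) and 0 with OI+PM (1). Without a filter the 3 genotype comparisons gave 1, 1 and 2. DESeq2 gave 1 with PM and 2 with OI+PM. The length correction, with or without the replicate block, gave 4 for PM in Acod1-/-, 1 for Acod1-/- versus WT with PM and 3 with OI+PM. With 1 library left out, the count ranged from 1 to 4 (PM in WT), 1 to 2 (PM in Acod1-/-), 2 to 6 (OI in WT), 1 to 2 (OI in Acod1-/-), 0 to 5 (genotype with OI+PM) and 0 to 1 (difference in the OI effect); the lone library is then assumed to vary like the other groups. The replicate block gave 2 members for the genotype comparison with OI+PM (Acod1, adjusted p = 0.0475, joined Slc25a1), and changed no other count of members. The libraries share only a replicate number. With 2 pairs, same-numbered deviations correlated between −0.41 and 0.73, and for Acod1-/- versus WT with PM (−0.41) the crossed pairing called 0 members and 179 genes, against 255 with the block and 269 without. The depth limits Acod1 with vehicle (44 to 98 counts) and Slc13a3.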
